A study of Mus musculus with 2 samples.

Results

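Mitochondria build a small set of respiratory chain proteins on ribosomes of their own, and the protein subunits of those ribosomes are encoded in the nucleus by genes named Mrps for the small subunit and Mrpl for the large subunit. This account covers 77 such genes, 29 Mrps and 48 Mrpl, of 19935 genes that could be named on the arrays. A gene was included if its symbol begins with Mrps or Mrpl followed by a digit and at least 1 probe set is assigned to it alone. Where a gene had several such probe sets (8 of the 77), the one with the highest mean log2 intensity over both arrays stood for it. No measured difference entered this rule, although members and lists were chosen with earlier results of these data known. Mrpl53, found only on a probe set shared with Ccdc142, has no value here.

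The arrays compared IL-27 with vehicle. The IL-27 cells were flow-sorted primary splenic dendritic cells (DCs) of wild type C57BL/6 mice aged 8 weeks, treated with IL-27, a cytokine of the IL-12 family, for a time that the labels give as "ON". The vehicle cells were DCs of the same strain, genotype, age and source. Each condition was read on 1 array, the number of animals or cultures behind each is not in the labels, and so no test, SD or p-value can be given and every difference below is one between these 2 arrays. Values are deposited intensities on a linear scale, and a difference is log2 of IL-27 over vehicle, so that a negative value means a lower intensity with IL-27.

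A mitochondrial ribosome reads messenger RNA transcribed from mitochondrial DNA. Its small subunit holds the site where codons are decoded, and its large subunit joins the amino acids and passes the new protein to the inner membrane. Some of its proteins have counterparts in bacterial ribosomes, while others exist only in mitochondria. All are made in the cytosol and imported, so their number has to be matched to ribosomal RNA made inside the organelle. In immune cells mitochondrial protein synthesis is needed to keep the respiratory chain supplied, for example when lymphocytes start to divide.

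The arrays as a whole set the frame for these values. The median intensity of all 28815 probe sets was 98.9 on the IL-27 array and 92.4 on the vehicle array, whereas the 75th percentile was 215 and 267. The difference varied with brightness, with a median of 0.19 for the 6160 genes with a mean log2 intensity below 6, and of -0.55 for the 2572 genes between 8 and 9. Olfactory receptor genes, which DCs are not expected to use, served as a measure of background. Their median intensity was 59.0 with IL-27 and 40.5 with vehicle, with a median difference of 0.46. Their 95th percentile (the olfactory limit) was 129 on the IL-27 array and 77.3 on the vehicle array. Among DC markers, Flt3, Itgax, Zbtb46, H2-Aa and Cd74 lay above that limit on both arrays, while 4 of 13 (Cd209a, Xcr1, Sirpa and Flt3) were lower by 2-fold or more with IL-27 (summed intensity of the 13 markers 33381 with IL-27 and 42081 with vehicle). After quantile normalization and with the level trend removed 3 of them were, without Flt3 (-0.91 and -0.76). Over all named genes 7.36% were lower by the 2-fold rule given below. The 9 measured macrophage and monocyte markers were all lower by 2-fold or more with IL-27 (summed intensity 5831 with IL-27 and 18108 with vehicle), and 8 still were with the level trend removed. Of 7 markers of dividing cells 5 were lower (Top2a, Mki67, Mcm2, Cdk1 and Mcm5; summed intensity of the 7 markers 2472 with IL-27 and 4772 with vehicle), but 4 after quantile normalization and 0 with the level trend removed. The B cell markers Cd79a, Cd79b and Ms4a1 lay above the limit on both arrays, and Ms4a1 was 2.15-fold lower (summed intensity of 4 markers 879 with IL-27 and 1372 with vehicle), a call not met after quantile normalization or with the trend removed. The T cell markers Cd3d and Cd3g exceeded the limit on neither array, and Cd3e, at 114 with IL-27 and 82.0 with vehicle, did on the vehicle array. Of 4 NK cell and 5 neutrophil markers, S100a9 alone exceeded it on both, and no marker was listed at 0. In sorted cells read as bulk RNA, fewer cells of a type and less RNA per cell cannot be told apart, and the part of these shifts in the results below was not tested.

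Mitochondrial ribosomal protein genes had modestly lower intensities on the IL-27 array. For the brighter members the shift was about that of other genes of their level. Most dimmer members lay below such genes, but many genes that dim were within the olfactory limits, and background was higher on the IL-27 array. The median intensity of the 77 members was 154 with IL-27 and 220 with vehicle. Their median difference was -0.48, and their quartiles were -0.67 and -0.20. The median stayed below 0 under each scaling tried, at -0.34 after quantile normalization, -0.58 after median centring and -0.20 with the level trend removed. The difference was below 0 in 68 of 77 members, against 46.6% of all 19935 genes. Over all genes the median difference was 0.04. Most of those genes are dim, however, and of the 11140 genes at or above the level minimum (96.2 or more on the brighter array, which is the median over all values of both arrays) 70.9% were below 0, against 61 of 69 members.

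By a size rule that asks for a 2-fold difference in a gene that reaches the level minimum, 4 of 77 members were lower and none was higher. Over all named genes 7.36% were lower and 0.848% higher by that rule, and over genes at the level minimum 13.2% were lower. The share of members that were 2-fold lower was thus no larger than the background. The members called lower were Mrps15, Mrpl36, Mrps33 and Mrps5, at differences of -1.31, -1.14, -1.05 and -1.01, and those just short of the rule were Mrps35, Mrpl16, Mrpl33 and Mrps18c, at -0.93, -0.89, -0.84 and -0.83. None of the 4 members called lower was called after quantile normalization or with the level trend removed. At 1.5-fold, 28 members were lower and 1 was higher, against 18.8% lower and 3.28% higher of all genes and 33.7% lower of those at the level minimum. The members lower at 1.5-fold made up 28 of the 69 over the level minimum, and 20 of them lay above the olfactory limit on both arrays.

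**Figure D1:**
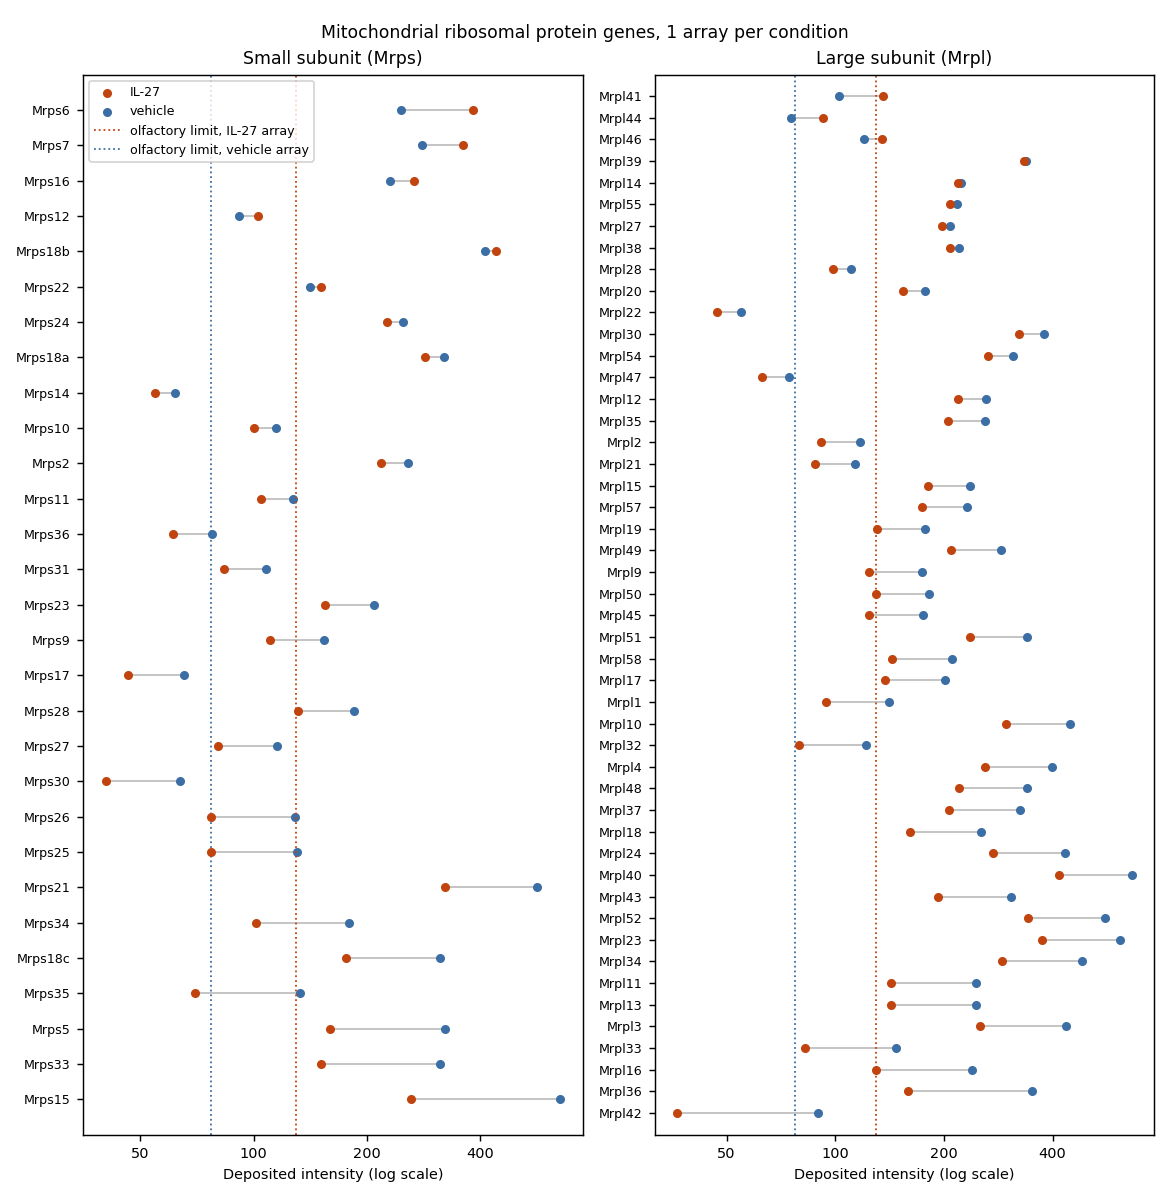
Deposited intensity (log axis) of each of the 77 genes on the IL-27 array (orange) and the vehicle array (blue), for Mrps genes (left) and Mrpl genes (right), ordered by their difference, with dotted lines at the olfactory limit of each array (129 for IL-27 and 77.3 for vehicle). In 68 genes the IL-27 point lies left of the vehicle point.

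To set each member against genes of like brightness, its difference was compared with the median difference of the 1000 other genes nearest in mean log2 intensity. The median of those local medians was -0.50 over the members, close to their own median difference of -0.48. Taken member by member, 27 of 77 lay above the local median and 50 below it, where 49.8% of all genes lay above, and the median departure was -0.14. The departure was larger in dim members. In the 19 members with a mean log2 intensity between 6 and 7 the median departure was -0.48, and in the 5 below 6 it was -0.72. In the 33 members between 7 and 8 it was -0.10, and in the 19 between 8 and 9 it was -0.07.

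The dim members are also those for which the measured level is least certain. On the IL-27 array 27 of 77 members lay at or below the olfactory limit, against 6 on the vehicle array, and those 6 lay within it on both arrays. Of all 19935 genes, 12361 lay at or below the limit on the IL-27 array, 8376 on the vehicle array and 8326 on both. The genes nearest in level to dim members thus include genes at background, where the olfactory receptors had a median difference of 0.46. For the 50 members above the limit on both arrays, set against the 1000 nearest of the 7524 genes that also passed on both, 23 lay above the local median and 27 below, with a median departure of -0.07. Because the limit is higher on the IL-27 array, requiring both arrays favours genes that were higher there, in members and other genes alike.

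**Figure D2:**
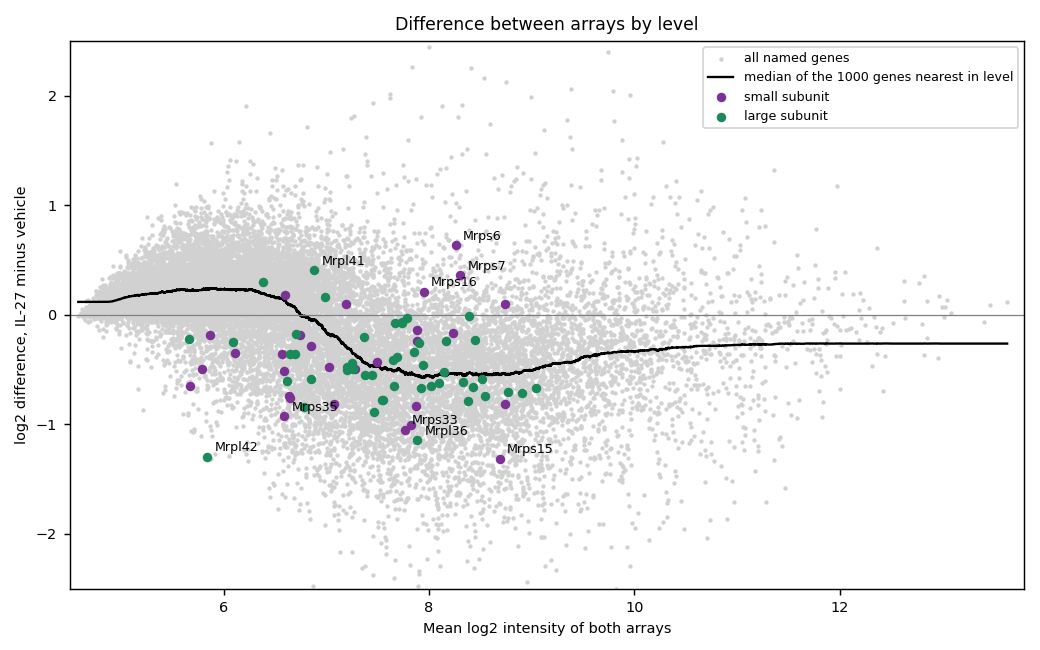
Difference (log2, IL-27 minus vehicle) against mean log2 intensity of both arrays for all named genes (grey), small subunit genes (purple) and large subunit genes (green), with the median of the 1000 genes nearest in level as a black line and genes beyond 2.5 in either direction not drawn. Members brighter than 7 on the level axis scatter around the line, and most of the dimmer members lie below it.

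The median difference was -0.44 for the 29 Mrps genes and -0.50 for the 48 Mrpl genes. The small subunit minus the large subunit was 0.06 as deposited but -0.091 after quantile normalization and -0.15 with the level trend removed, so its direction is not fixed. Set against genes of their level, the medians were -0.28 for Mrps and -0.11 for Mrpl genes. Among members above the olfactory limit on both arrays they were -0.24 for 15 Mrps and -0.52 for 35 Mrpl genes as deposited, a gap of 0.28, and 0.043 and -0.073 against genes of their level that also passed. This filter left out members for a low value on the IL-27 array, 14 of 29 Mrps and 13 of 48 Mrpl genes. The gap of 0.28 therefore cannot be read apart from the filter. The quartiles were -0.76 and -0.17 for Mrps genes, and -0.66 and -0.23 for Mrpl genes. By the 2-fold rule 3 Mrps genes and 1 Mrpl gene were lower, and 9 Mrps and 19 Mrpl genes were lower at 1.5-fold. Of the 9 members with a difference above 0, 6 were Mrps genes and 3 were Mrpl genes. Genes are not replicates, and whether the spread differs between subunits was not tested.

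Symbols and structures do not always match. In structures of the mammalian mitochondrial ribosome the products of Mrps18a and Mrps30 sit in the large subunit, and the product of Mrps36 is now known as a component of the alpha-ketoglutarate dehydrogenase complex. With Mrps18a and Mrps30 counted as large and Mrps36 left out, the medians were -0.46 for 26 small subunit genes and -0.50 for 50 large subunit genes. Split by ancestry, the 48 genes with bacterial counterparts had a median of -0.42 and the 28 found only in mitochondria -0.52. Set against genes of their level these were -0.19 and -0.09, in the opposite order. Mrpl55 was counted with the bacterial counterparts.

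Among small subunit proteins with a bacterial counterpart, the members at both ends of the list were found. Mrps15 (probe set 10508089), whose bacterial counterpart binds the central domain of the ribosomal RNA early in assembly, had an intensity of 262 with IL-27 and 651 with vehicle, which is 2.49-fold lower. Mrps5 (10480379), of the family that lines the messenger RNA entrance, had 160 with IL-27 and 321 with vehicle, or 2.01-fold lower, and its other probe set had a difference of -0.76. Both genes were bright on the vehicle array and above the olfactory limit on each. With the level trend removed these differences were -0.81 and -0.52.

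At the other end, Mrps6 (10436941) had 382 with IL-27 and 247 with vehicle, which is 1.55-fold higher. It was the member with the largest positive difference, 0.63, and the one higher at 1.5-fold, and with the level trend removed its difference of 1.16 passed the 2-fold rule. Of the 1000 genes nearest in level, 5.1% lay as far from their median. The gene span of Mrps6 overlaps that of Slc5a3, a myo-inositol transporter, which had 196 with IL-27 and 113 with vehicle. Mrps7 (10382565), whose bacterial counterpart organises the head of the small subunit, had 358 with IL-27 and 280 with vehicle. Its span overlaps those of Mif4gd (644 with IL-27, 438 with vehicle) and Gga3 (374 with IL-27, 412 with vehicle). Slc5a3 and Mif4gd were thus higher with IL-27 as well, and whether the probe sets of Mrps6 and Mrps7 also read these transcripts was not tested. Spans of other members also overlap genes, whose differences had the same sign as the member in some cases and the opposite sign in others.

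Mrps16, whose loss causes a mitochondrial disease in humans, had 266 with IL-27 and 230 with vehicle. Mrps12, part of the decoding site, had 103 with IL-27, below the olfactory limit there, and 91.2 with vehicle. Neither reached 1.5-fold. Mrps2 had 218 with IL-27 and 257 with vehicle, and Mrps24, the counterpart of a bacterial protein at the messenger RNA entrance, 226 with IL-27 and 248 with vehicle. Mrps21 was lower, with 322 with IL-27 and 565 with vehicle (1.76-fold). The remaining bacterial-type small subunit genes (Mrps9, Mrps10, Mrps11, Mrps14, Mrps17 and Mrps28) had differences from -0.50 to -0.18, and of these Mrps28 alone exceeded the olfactory limit on both arrays.

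The Mrps18 genes show how far close relatives differed. They encode paralogues of 1 bacterial protein, of which those of Mrps18b and Mrps18c sit in the small subunit and that of Mrps18a in the large. Mrps18a had 284 with IL-27 and 319 with vehicle, and Mrps18b had 441 with IL-27 and 412 with vehicle. Mrps18c had 176 with IL-27 and 312 with vehicle, 1.78-fold lower. All of these values lay above the olfactory limits. The sign of Mrps18b, 0.10 as deposited, turned with median centring, and that of Mrps18a, -0.17, after quantile normalization and with the level trend removed.

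Of the small subunit proteins found only in mitochondria, Mrps33 (10563829) had 151 with IL-27 and 313 with vehicle, which is 2.07-fold lower, and its other probe set differed by -0.82. Mrps35, Mrps25, Mrps26 and Mrps34 were lower at 1.5-fold, with differences of -0.93, -0.76, -0.74 and -0.81. On the IL-27 array these 4 were below the olfactory limit (70.0 to 102), so the size of their difference is not fixed. Mrps22, in which human variants cause mitochondrial disease, had 151 with IL-27 and 141 with vehicle. Mrps23, Mrps27 and Mrps31 had differences of -0.44, -0.52 and -0.36. Mrps30, a large subunit protein by structure, and Mrps36 were dim, with 40.5 and 61.1 with IL-27 against 63.8 and 77.7 with vehicle.

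In the large subunit, Mrpl36 (10406026), a small protein with a bacterial counterpart, had 159 with IL-27 and 352 with vehicle, which is 2.21-fold lower. It was the Mrpl gene past the 2-fold rule. Mrpl3, a core protein near the site of peptide bond formation, had 253 with IL-27 and 436 with vehicle. The stalk, which recruits translation factors, is built on Mrpl10 and Mrpl11 and carries copies of Mrpl12. Mrpl10 had 298 with IL-27 and 449 with vehicle, and Mrpl11 had 143 with IL-27 and 245 with vehicle, both lower at 1.5-fold. Mrpl12, which has also been described to bind mitochondrial RNA polymerase in human cells, had 219 with IL-27 and 262 with vehicle, and its difference of -0.26 turned to 0.058 after quantile normalization and to 0.25 with the level trend removed.

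The proteins of Mrpl22, Mrpl23, Mrpl24, Mrpl45 and Mrpl47 lie around the exit of the peptide tunnel. Mrpl23 had 373 with IL-27 and 614 with vehicle, and its probe sets had differences of -0.72 and -0.74. Mrpl24 had 274 with IL-27 and 433 with vehicle. Mrpl45, which faces the inner membrane, had 124 with IL-27, below the olfactory limit, and 175 with vehicle. Set against the genes of their level, these differences were -0.19, -0.11 and -0.20. Mrpl22 and Mrpl47 exceeded the olfactory limit on neither array, and their departures were -0.44 and -0.48.

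Several large subunit members are known for roles beside the ribosome. Mrpl41, described to promote cell death by binding BCL2, had 136 with IL-27 and 102 with vehicle, which is 1.32-fold higher and the largest positive difference among Mrpl genes. Its IL-27 value was close to the olfactory limit of 129. The 1000 nearest genes above the limit on both arrays had a median difference of 0.24, and 65.5% lay as far from that median as Mrpl41. The probe sets of Mrpl41 had differences of 0.28 and 0.41, and the one at 0.28 had 106 with IL-27, below the olfactory limit. Mrpl58 (also called Ict1), which releases stalled peptides, had 144 with IL-27 and 210 with vehicle. Mrpl18, described in human cells to bind imported ribosomal RNA, had 161 with IL-27 and 253 with vehicle. Mrpl44, an RNase III-like protein, exceeded the olfactory limit on neither array, at 92.7 with IL-27 and 75.2 with vehicle. None of these passed the 2-fold rule, and Mrpl18 was lower at 1.5-fold.

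Mrpl42, a protein found only in mitochondria, had the lowest difference among Mrpl genes, with 36.5 with IL-27 and 89.8 with vehicle. Its difference of -1.30 did not count by the size rule because its brighter value was below the level minimum. Of the 1000 genes nearest in level, 0.1% lay as far from their median, and its IL-27 value is below the olfactory limit, so the size is not fixed. Mrpl39, Mrpl14, Mrpl55, Mrpl27 and Mrpl38 had nearly the same intensity on both arrays, with differences from -0.08 to -0.02. After quantile normalization each of these 5 was above 0, from 0.21 to 0.32. Mrpl40 had 417 with IL-27 and 663 with vehicle, and Mrpl52 had 342 with IL-27 and 559 with vehicle. Mrpl13, Mrpl16, Mrpl33, Mrpl34, Mrpl43, Mrpl37, Mrpl48, Mrpl4, Mrpl32 and Mrpl1 were lower at 1.5-fold too, with differences from -0.89 to -0.59. Of these, Mrpl16, Mrpl33, Mrpl32 and Mrpl1 were below the olfactory limit on the IL-27 array, so the size of their difference is not fixed. The other Mrpl genes had differences between -0.55 and 0.16.

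The order of probe set IDs on this array follows the chromosomes, and it showed that some members may be read from another place in the genome. Of 21686 single-gene probe sets with a chromosome, 96.8% had a gene on the chromosome of most of the 20 nearest IDs. For 4 members, Mrpl27, Mrpl48, Mrpl51 and Mrps33, the probe set used lay among IDs of another chromosome than the gene's, compared with 1.57% of all genes. Mrpl27 had a difference of -0.36 by its other probe set in place of -0.08, and Mrpl51 had 141 on each array by its other probe set in place of a difference of -0.52. Mrpl48 has no other probe set here. The probe sets not used for Mrpl23, Mrpl41 and Mrps36 also lay among IDs of another chromosome. The differences of the first 2 are given above, and that of Mrps36 was -0.36. Which sequence these probe sets detect was not tested, and with probe sets of the own chromosome alone the list median was -0.47 and Mrps33 was no longer called lower.

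Promoter sequences are given because members share letters there that the choice of genes did not use. Windows of 300 bases (250 before the start and 50 after it) were taken from RefSeq, build GRCm38.p6, for the 68 members that matched, 74 windows in all. Shown are the 250 bases before the start for the 2 highest and 2 lowest members above the olfactory limit on both arrays. They are Mrps6 (chr16:92058086-92058335, plus strand), Mrpl41 (chr2:24975099-24975348, minus strand), Mrps15 (chr4:126046678-126046927, plus strand) and Mrpl36 (chr13:73330759-73331008, plus strand), each written 5′ to 3′ along the gene. Capitals mark the letters of any motif searched, on either strand.
Mrps6: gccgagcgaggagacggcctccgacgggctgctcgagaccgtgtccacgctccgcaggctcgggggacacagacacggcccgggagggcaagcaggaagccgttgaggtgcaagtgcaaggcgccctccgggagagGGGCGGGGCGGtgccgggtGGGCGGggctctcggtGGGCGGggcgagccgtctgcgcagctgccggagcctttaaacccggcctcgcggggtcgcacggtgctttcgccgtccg
Mrpl41: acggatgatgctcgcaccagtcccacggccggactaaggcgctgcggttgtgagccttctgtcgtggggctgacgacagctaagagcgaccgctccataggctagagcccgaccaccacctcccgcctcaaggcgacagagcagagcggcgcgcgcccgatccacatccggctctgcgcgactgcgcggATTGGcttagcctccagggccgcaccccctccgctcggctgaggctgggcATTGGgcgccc
Mrps15: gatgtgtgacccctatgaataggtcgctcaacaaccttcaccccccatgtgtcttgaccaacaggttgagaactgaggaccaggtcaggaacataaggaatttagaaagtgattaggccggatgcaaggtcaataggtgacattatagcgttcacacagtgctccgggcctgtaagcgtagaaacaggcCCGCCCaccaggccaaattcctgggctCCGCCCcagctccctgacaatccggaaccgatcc
Mrpl36: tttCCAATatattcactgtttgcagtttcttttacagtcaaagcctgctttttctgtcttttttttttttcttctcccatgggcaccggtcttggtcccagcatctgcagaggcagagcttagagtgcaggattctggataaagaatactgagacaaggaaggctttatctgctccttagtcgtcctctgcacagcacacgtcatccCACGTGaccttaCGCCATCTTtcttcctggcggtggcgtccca

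Mrps6 holds 4 copies of the SP letters GGGCGG, the first pair overlapping, and Mrps15 holds 2 in the reverse direction. Mrpl41 holds 2 copies of CCAAT in reverse. Mrpl36 holds CCAAT, the E-box CACGTG and the YY1 letters AAGATGGCG in reverse, the last of these beginning 31 bases before the start. A match of letters is a description and shows no binding.

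Across all member windows, letters of factors known to drive genes for mitochondrial proteins were more frequent than in promoters at large. The ETS letters CCGGAAG, bound by GABP, were in 25 of 74 member windows (33.8%), against 11.6% of the 21262 windows of protein-coding genes. The YY1 letters AAGATGGCG were in 8 member windows (10.8%), against 1.83%. The NRF1 letters (GCGCA, 1 free base, then GCGC) were in 13 member windows (17.6%), against 6.38%, and those with T as the free base, which are among them, in 3 (4.05%), against 1.33%. The E-box CACGTG (9.46% against 7.84%), GGGCGG (52.7% against 46.2%) and CCAAT (39.2% against 38.2%) were closer to the general share. These shares come from sequence alone and not from the arrays.

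The difference between arrays was also set beside motif content, without a test. The 25 genes with the ETS letters had a median difference of -0.55 and the 43 without them -0.36, but set against genes of their level these were -0.11 and -0.19, in the opposite order. For the YY1 letters the medians were -0.43 in 8 genes with them and -0.48 in 60 without. For the NRF1 letters with a free base they were -0.48 in 13 genes with it and -0.49 in 55 without. For the E-box they were -0.65 in 5 genes with it and -0.48 in 63 without, or -0.28 and -0.17 against genes of their level. For CCAAT the medians were close, at -0.49 in 26 genes with it and -0.45 in 42 without, but against genes of their level they were -0.29 and -0.09, the widest such gap of the motifs searched. For GGGCGG they were -0.49 in 34 genes with it and -0.46 in 34 without.

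**Figure D3:**
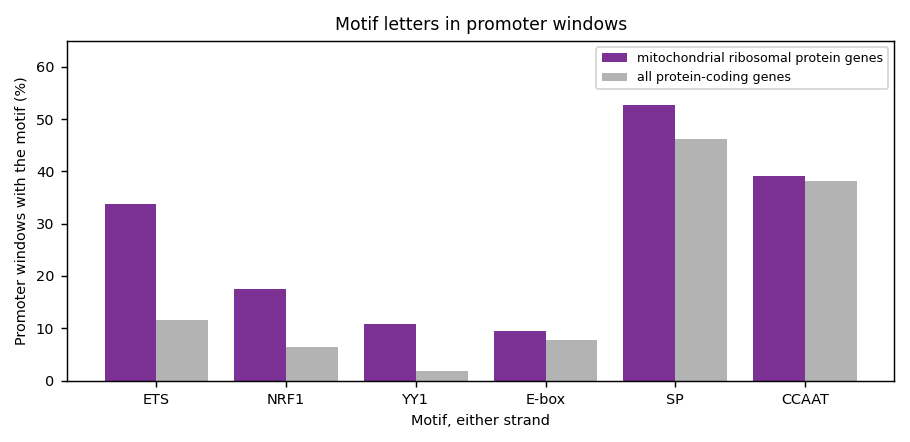
Percent of promoter windows that hold each motif on either strand (NRF1 with a free base), for members (purple, 74 windows) and all protein-coding genes (grey, 21262 windows). The ETS share is 33.8% in members and 11.6% in all windows, and the YY1 share 10.8% and 1.83%.

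Some members start back to back with another gene. For 21 of the 68 members with promoter windows, a protein-coding gene on the other strand starts within 500 bases upstream. The share over all genes was not computed. Of these pairs, 19 distinct ones had values for both genes. In 9 of the 19 pairs both genes lay on the same side of the median of their level, and the correlation of their departures was 0.09. One partner was 2-fold lower, Ptcd2 beside Mrps27 (212 with IL-27, 447 with vehicle), and none was 2-fold higher. Mrpl46 and Mrps11, both members, start 42 bases apart. Mrpl46 had 134 with IL-27 and 120 with vehicle, and Mrps11 had 104 with IL-27 and 127 with vehicle. Mrpl43 starts 116 bases from Twnk, the mitochondrial DNA helicase, which exceeded the olfactory limit on neither array. Mrps12 starts 147 bases from Sars2, the mitochondrial seryl-tRNA synthetase, which had 153 with IL-27 and 220 with vehicle.

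Other genes of mitochondrial protein synthesis had medians below 0 as well. Their 2-fold counts are to be read against the 7.36% of all genes, and 13.2% of genes at the level minimum, that were lower. Most genes of these lists reached that minimum. Of these genes, Rbfa and Myc had larger negative differences than any member while above the olfactory limit on both arrays. Subunits without an Mrp symbol were Dap3 (210 with IL-27, 367 with vehicle), Ptcd3 (77.0 with IL-27, below the olfactory limit, 147 with vehicle), Chchd1 (154 with IL-27, 222 with vehicle) and Gadd45gip1 (246 with IL-27, 264 with vehicle). None of these 4 passed the 2-fold rule. Their median difference was -0.66.

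Of 16 translation factors 3 were lower by the 2-fold rule and none higher, with a median of -0.56. Guf1, an elongation factor, was at least 1.93-fold lower, at 99.3 with IL-27 and 249 with vehicle. Lrpprc, which stabilises mitochondrial messenger RNA, was at least 2.02-fold lower, at 124 with IL-27 and 261 with vehicle. The initiation factor Mtif2 was at least 1.11-fold lower, at 69.1 with IL-27 and 144 with vehicle. These bounds, here and below, are taken on the deposited scale against the olfactory limit, since each IL-27 value lay below it. They need not hold under other scalings, where Lrpprc was at -0.90 (quantile normalization) and -0.68 (trend removed). After quantile normalization and with the trend removed, Guf1 and Mtif2 still passed the rule and Lrpprc did not. The elongation factor Tufm had 279 with IL-27 and 349 with vehicle, and Gfm1 had 116 with IL-27 and 226 with vehicle.

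Of 19 measured enzymes that load mitochondrial transfer RNAs, 3 were lower by the 2-fold rule and none higher, with a median of -0.50. Iars2 was at least 2.46-fold lower (117 with IL-27, 318 with vehicle) and Rars2 at least 1.43-fold (87.7 with IL-27, 185 with vehicle). Gatc, a subunit of the enzyme that makes glutaminyl-tRNA, was 2.32-fold lower, at 153 with IL-27 and 356 with vehicle. After quantile normalization Gatc did not pass, and with the trend removed Iars2 alone did. Of 26 genes for assembly of the ribosome and modification of its RNA, 2 were lower and none higher, with a median of -0.38. Rbfa, which prepares the small subunit, was 2.91-fold lower, at 138 with IL-27 and 401 with vehicle. Tfb1m, which methylates small subunit RNA, was at least 1.14-fold lower, at 63.9 with IL-27 and 147 with vehicle. Both still passed the rule after quantile normalization and with the trend removed. Rcc1l had 188 with IL-27 and 136 with vehicle, the largest positive difference of that list at 0.46.

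Of 17 genes that copy, transcribe or process mitochondrial DNA and RNA, 4 were lower and none higher, with a median of -0.49. Elac2, a transfer RNA processing enzyme, was 2.38-fold lower, Pnpt1, which degrades RNA, 2.27-fold, Prorp, another processing enzyme, 2.07-fold, and Polg2, the accessory subunit of the DNA polymerase, at least 1.54-fold. After quantile normalization, and likewise with the trend removed, 1 of the 4 was called, Polg2. Polrmt, the RNA polymerase, had 199 with IL-27 and 232 with vehicle. Set against genes of their level, the medians of the translation factors, the transfer RNA enzymes and these genes were -0.34, -0.36 and -0.29, against -0.14 for the ribosomal proteins. Of the translation factors 10 of 16, and of the transfer RNA enzymes 12 of 19, did not exceed the olfactory limit on the IL-27 array.

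Regulators of mitochondrial biogenesis had differences in both directions. Myc, a growth regulator, was 2.75-fold lower, at 218 with IL-27 and 600 with vehicle. C1qbp, a matrix protein needed for mitochondrial translation, was 2.22-fold lower, at 245 with IL-27 and 544 with vehicle. These were the 2 of 16 past the 2-fold rule, and after quantile normalization Myc still was and C1qbp, at -0.83, was not. With the level trend removed neither was, with Myc at -0.94, while Atf4 at 1.05 was called higher. Nrf1 had 182 with IL-27 and 206 with vehicle, Gabpa 170 with IL-27 and 263 with vehicle, and Yy1 714 with IL-27 and 698 with vehicle. Atf4, the stress response factor, had 552 with IL-27 and 374 with vehicle, and Atf5 had 187 with IL-27 and 134 with vehicle. The list's median of -0.33 turned to 0.05 with the level trend removed.

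**Figure D4:**
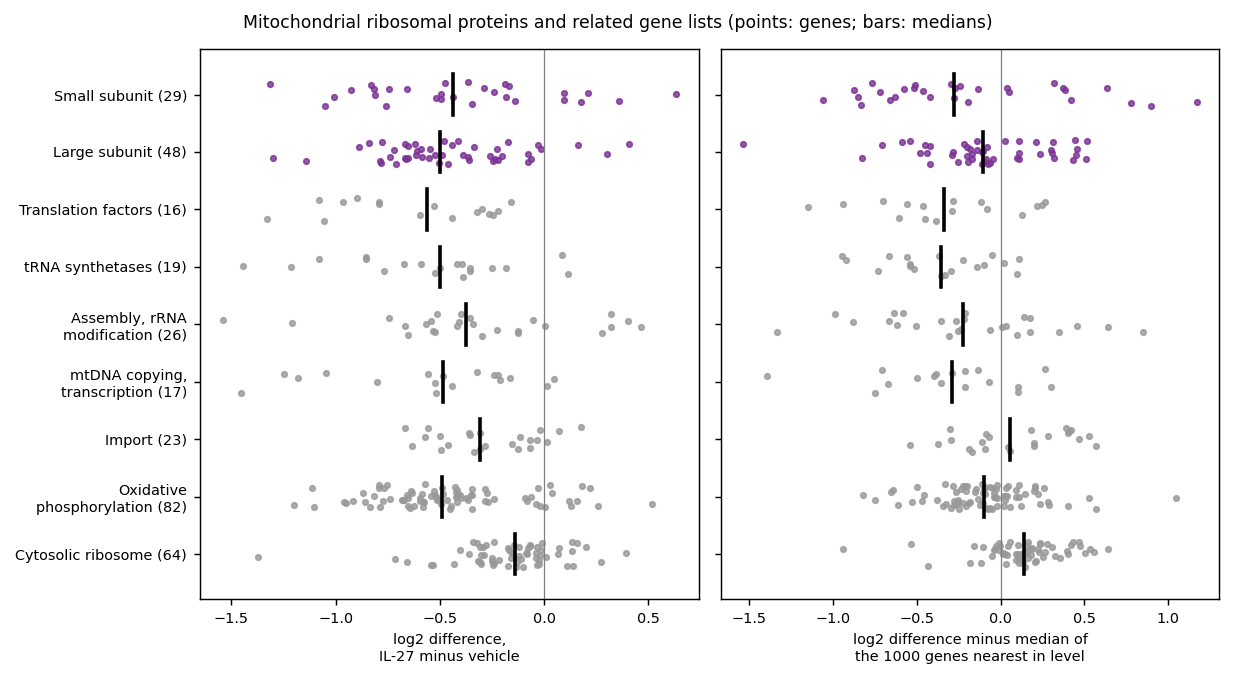
Difference between arrays (left, log2 of IL-27 over vehicle) and the same minus the median of the 1000 genes nearest in level (right) for small and large subunit genes (purple) and related lists (grey), where points are genes, jittered vertically, black bars are medians and the number of genes is in brackets. On the left, the bar of the cytosolic ribosome (-0.14) is nearer 0 than those of the mitochondrial subunits (-0.44 and -0.50).

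Against the groups most like them, the mitochondrial ribosomal proteins had a median close to that of the respiratory chain and below that of the cytosolic ribosome. The 82 oxidative phosphorylation subunits had a median difference of -0.49, with 3 lower and none higher by the 2-fold rule, and 30 lower at 1.5-fold. The 3 were the complex I genes Ndufa9 (181 with IL-27, 415 with vehicle), Ndufb8 (132 with IL-27, 287 with vehicle) and Ndufc2 (1047 with IL-27, 2251 with vehicle). None was called after quantile normalization, and with the level trend removed none was lower and 1, Cox6a2, was higher. The list's median against genes of their level was -0.10. The 64 genes with symbols of cytosolic ribosomal proteins had a median of -0.14, with 1 lower (Rpl12) and 3 lower at 1.5-fold. Of these, 50 lay above the median of their level, against 27 of 77 mitochondrial members, and the medians of the departures were 0.14 for cytosolic and -0.14 for mitochondrial genes. With the level trend removed, the cytosolic median turned to 0.05. Those symbols include Rps19bp1, a binding partner, and Rps23rg1, a retrogene, and without them the median of 62 genes was -0.15. The cytosolic genes had a median intensity of 1575 with IL-27 and 1905 with vehicle, in a range where the median difference of all genes is nearer 0, and with 1 array per condition the contrast could not be tested. Mitochondrial import genes, 23 in all, had a median of -0.31 as deposited and 0.028 without the level trend, and none passed the 2-fold rule. The lowest were Timm44, at 124 with IL-27 and 197 with vehicle, and Tomm70a, at 208 with IL-27 and 323 with vehicle.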

How the data were processed

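Splenic DCs treated with IL-27 or vehicle were read on 1 array each. The deposited table holds linear intensity values, 1 for each probe set on each array. How the image became an intensity is not given in the sources used here, and the genome build was mm8 per the submitters' processing notes. Precision is limited by having 1 array a condition. Names came from the platform annotation in GEO. Of 28815, 21780 had 1 gene and were used, 1605 had several and 5430 are unnamed here. The log2 of each deposited intensity was taken with no offset. Calls follow a 2-fold size rule. Local medians over 1000 genes, lowess (span 0.3) and all tables were computed with Python 3.11.15, pandas 2.3.3 and statsmodels 0.14.6, and were tested on simulated shifts. Local medians describe a gene beside others of its level and are not a test, which the design does not allow. Any member could be named. From the other lists, genes past the size rule were named, except the macrophage and monocyte markers, which are given by count and sum. The remaining list genes in the text were picked for their role, position or difference after their values were seen. Members, lists, the olfactory limit and motifs were chosen with earlier results of these data known. Alternatives were quantile normalization, median centring, trend removal, an offset of 16, level filters, a 1.5-fold rule and other probe set choices. Promoters are RefSeq's (GRCm38.p6). Proteins were not used here.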

Additional observations from a re-analysis of the deposited data

How the results depend on the processing

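The median difference of the 77 members stayed below 0 under every alternative run, from -0.58 to -0.20. Values that moved by over 0.1, or counts by over 1.5 times, were these. After quantile normalization the median was -0.34 over all members and -0.33 in the large subunit, small minus large was -0.091, and 0 members were 2-fold lower. Without the level trend the median was -0.20 over all members, -0.31 in the small and -0.17 in the large subunit, and small minus large was -0.15. In that setting 1 member (Mrps6) was 2-fold higher and 1 (Mrps35) lower. An offset of 16 left 2 lower (Mrps15 and Mrpl36), as did averaging the probe sets of a gene. With only the 50 members above the olfactory limit on both arrays, the small subunit median was -0.24 and small minus large 0.28. That filter removes members by their IL-27 value, and a larger share of the small subunit. At 1.5-fold 28 were lower and 1 higher. No called member changed sign, while 12 uncalled members did after quantile normalization, 17 with the trend removed and 2 with median centring. Over all named genes the 2-fold rule gave 169 higher and 1468 lower as deposited, 235 and 907 after quantile normalization, and 341 and 594 with the trend removed. Choosing probe sets by chromosome, restricting neighbours to genes above the limit, and the cytosolic list without 2 genes, were alternatives chosen after seeing the data. No paired analysis was possible because each condition has 1 array. Signals at or below the olfactory limit, in 27 members on the IL-27 array, set what can be resolved.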
